A study of Homo sapiens with 4 samples.

Results

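The genes described here are 9 target and feedback genes of the YAP and TGF-beta pathways, most of which encode proteins of the extracellular matrix or proteases that cut it. They are CYR61 and CTGF (the names the files use for CCN1 and CCN2), ANKRD1, AMOTL2, THBS1, TGFBI, SMAD7, MMP1 and MMP14, and all 9 were found by name among the 47251 genes listed. They were chosen by their FPKM values and folds in these same 4 libraries, so levels and folds are given as a description, with no test. RNA sequencing was done on HCT116, an established human colon cancer cell line, in 2 experiments with 1 library in each of 4 groups. In the plasmid experiment cells received 2 µg of a pCMV-entry plasmid (named for the strong CMV promoter) carrying TTC22, the TTC22V1 library, against 2 µg of the control vector (the vector library). In the siRNA experiment they received 3 siRNAs against TTC22 in a pool of 100 nM (the siTTC22 library), against scrambled siRNA at 100 nM (the scramble library). RNA was collected 48 hours after transfection. TTC22 encodes a protein with tetratricopeptide repeats, which bind other proteins.

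YAP and TAZ are transcriptional coactivators held in check by the Hippo kinases. In the nucleus they bind TEAD factors and switch on genes such as CTGF, CYR61, ANKRD1 and AMOTL2. TGF-beta signals through a pair of receptor kinases to SMAD proteins, which switch on matrix genes and also the inhibitor SMAD7, which closes a feedback loop. HCT116 is known for a defective gene of the type II TGF-beta receptor, so the classical TGF-beta response is weak in this line.

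Levels are given as FPKM, which counts sequenced fragments per gene length and per library size (the unit was inferred from the values). The folds are differences of log2(FPKM + 1). A gene counted as measured in a comparison if the 2 libraries averaged 1 FPKM or more, and higher or lower was called for a measured gene whose fold had a size of 1 or more on that scale, which is 2-fold. This rule of size stands in place of a test, because 1 library per group has no replicate error. The summed FPKM lay between 181102 and 205734 per library. The read depth is not given. Low values of genes listed with at most 6 decimals fell on common steps, and the steps put the relative depth of any pair of libraries between 0.953 and 1.13. The plasmid raised TTC22 itself to 24215 FPKM in the TTC22V1 library, against 4.46 FPKM in the vector library, and the siRNAs left 6.54 FPKM in the siTTC22 library, against 10.7 FPKM in the scramble library. The log2 fold of TTC22 with siTTC22 was −0.63, too small for a call, and its level in the siTTC22 library was above that in the vector library. The colon and simple epithelial markers EPCAM, KRT8, KRT18 and KRT19 were above 100 FPKM in every library, while CDX1, VIL1 and LGALS4 stayed under 0.1 FPKM. Of 6 measured colon markers 1 was lower with TTC22V1, CDX2, which was not called after median-centring, and none was called with siTTC22. Over all measured genes 4.1% were lower with TTC22V1, and 2.85% after centring. With siTTC22 2.57% were higher and 2.19% lower, so nothing is read from these few markers.

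One feature of the libraries touches several results. Most listed markers of basal and squamous epithelium, which colon cells are not known for, were higher in the vector and siTTC22 libraries than in the TTC22V1 and scramble libraries. The 12 markers summed to 17.5 FPKM in the TTC22V1 library, against 383 FPKM in the vector library, and to 370 FPKM in the siTTC22 library and 27.7 FPKM in the scramble library. Most of each higher sum was SFN, a gene with 1 exon, at 274 FPKM in vector and 262 FPKM in siTTC22. SFN was at 8.16 FPKM in TTC22V1 and 8.66 FPKM in scramble. KRT5, a basal keratin, stood at 0.0227 FPKM in the TTC22V1 library, against 15.3 FPKM in the vector library, and at 15.6 FPKM in the siTTC22 library and 0.00767 FPKM in the scramble library. TP63 and DSG3 were listed at 0 in the scramble library and no other marker of that list was at 0 anywhere. The exceptions were KRT15, at 14.3 FPKM in the scramble library and 6.80 FPKM in the vector library, KRT16, at 1.37 FPKM in scramble and 0.344 FPKM in vector, and KRT6B, at 0.0888 FPKM in siTTC22 and 0.131 FPKM in scramble. The markers did not move in 1 ratio either, since TP63 was at only 0.124 FPKM in the siTTC22 library, against 2.08 FPKM in the vector library. Of 9 measured markers, 8 were lower with TTC22V1 and 7 were higher with siTTC22. Over all measured genes these shares were 4.1% and 2.57%. The library with the higher sum was the control in the plasmid experiment and the treated library in the siRNA experiment. Mixed, contaminated or mislabelled libraries and a difference between treatments cannot be told apart with 1 library per group. This limit holds for every fold given here, also for genes that did not share the order of the markers.

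Promoter sequences are shown because TEAD and SMAD factors bind short DNA motifs, which can lie near the start of a gene. Motifs farther away were not searched. RefSeq promoters (GRCh38.p14) were found for 7 of the 9 genes, in 10 windows of 250 bases before a start, since AMOTL2 and SMAD7 have several starts. CYR61 and MMP1 had no entry. The letters searched on both strands were GGAATG for TEAD, CAGAC for SMAD and, as a loose pattern for AP-1, TGANTCA, in which N is any base. Below, 5′ to 3′ on the strand of the gene, capitals mark every match:
CTGF promoter, chr6:131951373-131951622, minus strand: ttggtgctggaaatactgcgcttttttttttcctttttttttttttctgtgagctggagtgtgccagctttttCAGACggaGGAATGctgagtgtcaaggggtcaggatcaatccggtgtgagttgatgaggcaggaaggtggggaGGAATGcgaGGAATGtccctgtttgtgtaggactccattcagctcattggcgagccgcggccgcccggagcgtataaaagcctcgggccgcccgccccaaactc
ANKRD1 promoter, chr10:90921088-90921337, minus strand: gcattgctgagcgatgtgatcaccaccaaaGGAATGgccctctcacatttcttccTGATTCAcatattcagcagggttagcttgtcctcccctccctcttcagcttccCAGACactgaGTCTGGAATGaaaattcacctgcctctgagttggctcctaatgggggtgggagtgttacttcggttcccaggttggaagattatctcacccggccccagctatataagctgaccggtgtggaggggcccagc
THBS1 promoter, chr15:39580829-39581078, plus strand: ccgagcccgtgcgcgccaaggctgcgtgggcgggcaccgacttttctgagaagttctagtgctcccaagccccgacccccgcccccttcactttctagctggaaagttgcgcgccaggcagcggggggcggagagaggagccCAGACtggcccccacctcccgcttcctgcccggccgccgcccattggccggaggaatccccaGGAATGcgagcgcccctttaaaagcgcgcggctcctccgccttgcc
TGFBI promoter, chr5:136028738-136028987, plus strand: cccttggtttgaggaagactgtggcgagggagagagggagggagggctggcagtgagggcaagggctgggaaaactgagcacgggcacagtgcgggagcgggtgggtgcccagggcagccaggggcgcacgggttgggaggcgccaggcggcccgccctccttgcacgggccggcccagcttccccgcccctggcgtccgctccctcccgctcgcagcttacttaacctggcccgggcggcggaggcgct

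CTGF held 3 TEAD motifs, the first beginning 169 bases before the start and the others at 104 and 95 bases, with 1 SMAD motif at 177 bases. ANKRD1 held 2 TEAD motifs, 2 SMAD motifs and 1 match to the loose AP-1 pattern, with the letters TGATTCA. Its second SMAD motif shares 1 base with the TEAD motif that follows it. THBS1 held 1 TEAD motif beginning 46 bases before the start and 1 SMAD motif at 108 bases. TGFBI and MMP14 held none of the 3 motifs in these windows. AMOTL2 held 1 SMAD motif before its first start and 1 TEAD motif before its second, and SMAD7 held 2 SMAD motifs before its first start, 1 before the next and none before the last.

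The TEAD motif was in 4 of the 10 windows, while 11.9% of all 35116 RefSeq promoter windows of the same length held it. The SMAD motif was in 6 of 10, against 38.0% of all, and the AP-1 motif in 1 of 10, against 6.57% of all. Windows of 1 gene are not independent, and the members, chosen by their values, are also known YAP and TGF-beta targets, so these shares are a description. A match is a match of letters and does not show that a factor binds there.

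**Figure D1:**
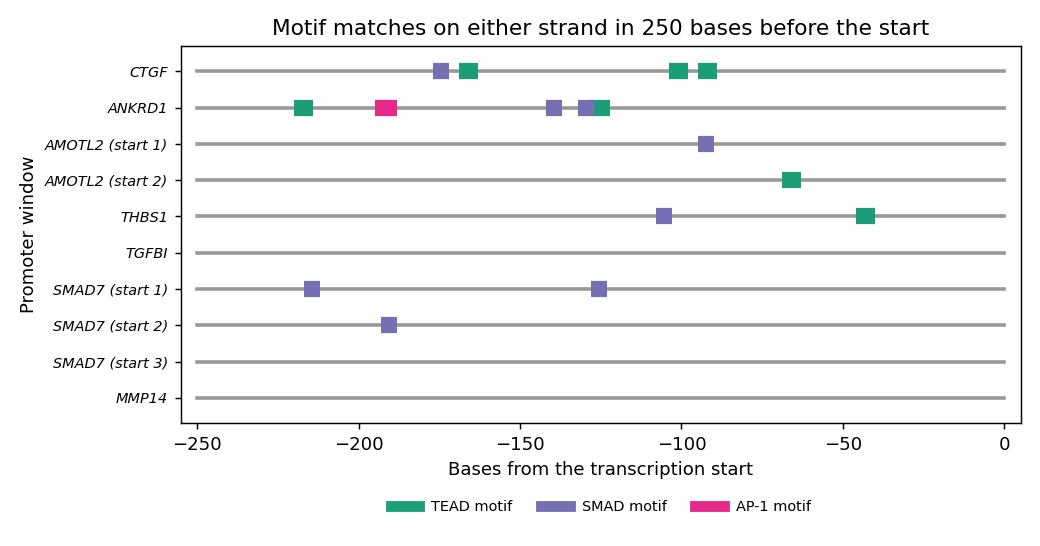
Positions of TEAD, SMAD and AP-1 motif matches (coloured blocks, either strand) in the 250 bases before each start, with 1 grey line per window and the start at 0 on the axis in bases. CTGF shows 3 TEAD matches and ANKRD1 shows 2, while the TGFBI and MMP14 lines carry no block.

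The 9 genes did not vary as 1 group. Across the 4 libraries CYR61, CTGF, AMOTL2, SMAD7 and MMP1 were highest in the siRNA experiment, and TGFBI and THBS1 were high in the vector and siTTC22 libraries. MMP14 also had its higher values in vector and siTTC22, but its siTTC22 level lay nearer scramble than vector. ANKRD1 was too low to place. In the siRNA comparison 5 of the 8 members measured, CYR61, CTGF, THBS1, TGFBI and MMP1, were higher with siTTC22 and 0 lower, where 2.57% of all 9744 measured genes were higher. In the plasmid comparison 3 of 6 measured members, THBS1, TGFBI and MMP14, were lower with TTC22V1 and 0 higher, where 4.1% of all 10191 measured genes were lower and 2.08% higher. After centring on the median gene 2 members, THBS1 and TGFBI, were lower, as were 2.85% of genes. The members entered by their values in both contrasts, so nothing is read from these shares. All 9 genes have 4 or more exons in GENCODE 44 and none was at 0 in any library.

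**Figure D2:**
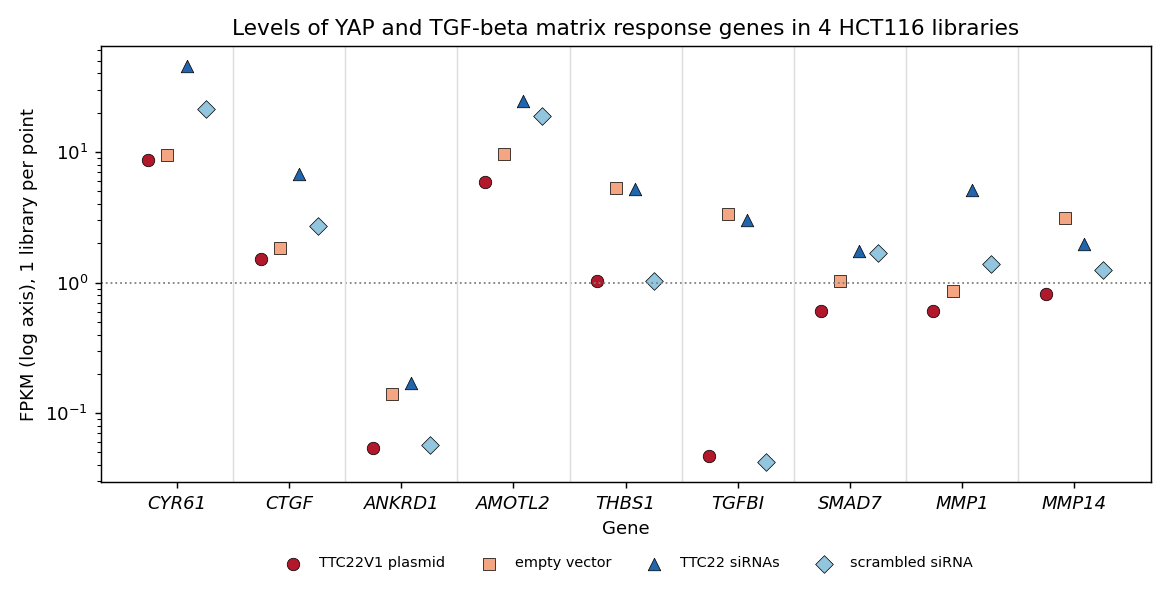
FPKM of each gene (log axis) in the TTC22V1, vector, siTTC22 and scramble libraries, 1 point per library, with a dotted line at 1 FPKM. CYR61, CTGF, AMOTL2, SMAD7 and MMP1 have both siRNA points above both plasmid points, whereas for TGFBI and THBS1 the vector and siTTC22 points stand together above the other pair.

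The matricellular YAP targets come first. CYR61 (ENSG00000142871, chromosome 1, 85580761 to 85584589 on the plus strand of hg38, with up to 5 exons) encodes a secreted protein that binds integrins and heparan sulfate. CYR61 had the highest mean of the members over the 4 libraries, 21.3 FPKM, although AMOTL2 was slightly above it in the vector library. CYR61 was at 45.8 FPKM in the siTTC22 library and 21.5 FPKM in the scramble library, and at 8.62 FPKM in the TTC22V1 library and 9.47 FPKM in the vector library. The siTTC22 library was 2.13 times the scramble library, a log2 fold of 1.06, just past the size rule. The plasmid libraries lay close together. The log2 fold of TTC22V1 over vector was −0.12, and 0.08 after centring on the median gene.

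CTGF (ENSG00000118523, chromosome 6, 131948176 to 131951372 on the minus strand, 5 exons) encodes a relative of CYR61 that promotes matrix production and is a standard readout of YAP. CTGF had 6.79 FPKM in the siTTC22 library and 2.74 FPKM in the scramble library, a ratio of 2.48 and a log2 fold of 1.06. In the TTC22V1 library it had 1.52 FPKM, against 1.84 FPKM in the vector library, and its log2 fold was −0.17. CTGF and CYR61 thus had the same order of libraries, siTTC22 highest, scramble second and the plasmid libraries at the bottom, and for CYR61 the step of scramble over vector, at a log2 difference of 1.10, was as large as that of siTTC22 over scramble. Both calls sat at the edge of the rule: when libraries were rescaled to a common sum without TTC22 and the mitochondrially encoded genes, their log2 folds were 0.999 for CTGF and 0.989 for CYR61, and the count of members higher with siTTC22 became 3 in place of 5.

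AMOTL2 (ENSG00000114019, chromosome 3, 134355347 to 134375479 on the minus strand, up to 10 exons) encodes an angiomotin-like protein that holds YAP in the cytoplasm and is itself a YAP target, so it acts as feedback. AMOTL2 was at 24.4 FPKM in the siTTC22 library and 18.7 FPKM in the scramble library, with a log2 fold of 0.36, too small for a call. It was at 5.91 FPKM in the TTC22V1 library and 9.63 FPKM in the vector library, with a log2 fold of −0.62 (−0.42 after centring on the median gene). The order of the 4 libraries was the same as for CYR61 and CTGF.

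ANKRD1 (ENSG00000148677, chromosome 10, 90912096 to 90921087 on the minus strand, 9 exons), a nuclear ankyrin repeat protein gene widely used as a YAP readout, was near the floor. Its values were 0.0541 FPKM in the TTC22V1 library, against 0.139 FPKM in the vector library, and 0.169 FPKM in the siTTC22 library and 0.0574 FPKM in the scramble library. With a mean of 0.105 FPKM over the 4 libraries ANKRD1 did not count as measured, and no fold or direction is drawn from it.

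Within the 2 comparisons of treatment with control, the members with the largest log2 folds were TGFBI and THBS1, matrix genes linked to TGF-beta. Over all 4 libraries the range of log2(FPKM + 1) was largest for CYR61, at 2.28, followed by TGFBI at 2.06. The added 1 FPKM shrinks the range of low genes, so this order does not hold for plain ratios. TGFBI ran from 0.0419 to 3.34 FPKM, and CYR61 from 8.62 to 45.8 FPKM. TGFBI (ENSG00000120708, chromosome 5, 136028988 to 136063818 on the plus strand, up to 17 exons) encodes a secreted protein that ties cells to collagen and is induced by TGF-beta. TGFBI was at 0.0473 FPKM in the TTC22V1 library, against 3.34 FPKM in the vector library, which gave −2.05 as log2 fold. It was at 3.04 FPKM in the siTTC22 library, against 0.0419 FPKM in the scramble library, a log2 fold of 1.95. The levels of the vector and siTTC22 libraries were close to each other, as were those of TTC22V1 and scramble, and each pair passed the filter on low values only through its high library.

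THBS1 (ENSG00000137801, chromosome 15, 39581079 to 39599466 on the plus strand, up to 22 exons) encodes thrombospondin 1, a matrix glycoprotein that can activate latent TGF-beta and inhibits vessel growth. THBS1 had 1.04 FPKM in the TTC22V1 library, against 5.30 FPKM in the vector library, with −1.63 as the log2 fold. It had 5.24 FPKM in the siTTC22 library and 1.04 FPKM in the scramble library, a log2 fold of 1.62. Here too each pair of libraries was nearly level: TTC22V1 over scramble gave 0.00 and siTTC22 over vector −0.01.

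Both vector and siTTC22 stood above both TTC22V1 and scramble for TGFBI, THBS1 and MMP14, as for 10.7% of the 10133 genes that averaged 1 FPKM or more over the 4 libraries. TGFBI and THBS1 were the 2 members that were lower with TTC22V1 and also higher with siTTC22, as were 0.466% of the 9226 genes measured in both comparisons. Their high libraries are those that held the basal and squamous markers, and the part of those markers in the result was not tested. The cell source of the TGFBI and THBS1 transcripts was not tested. Markers of fibroblasts were low in all 4 libraries. The 10 fibroblast markers summed to 2.59 FPKM in the TTC22V1 library, against 3.88 FPKM in the vector library, and to 3.06 FPKM in the siTTC22 library and 2.83 FPKM in the scramble library, most of it COL1A1, with POSTN at 0 in the TTC22V1 library and FAP under 0.1 FPKM everywhere. The 6 immune markers summed to 6.22 FPKM in the TTC22V1 library and 7.15 FPKM in the vector library, and to 37.6 FPKM in the siTTC22 library and 42.8 FPKM in the scramble library, nearly all of it CD68, with CD3E at 0 in all 4. The 6 endothelial markers summed to 0.144 FPKM or less in each library. In bulk RNA, fewer cells of a type and less RNA per cell cannot be told apart.

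**Figure D3:**
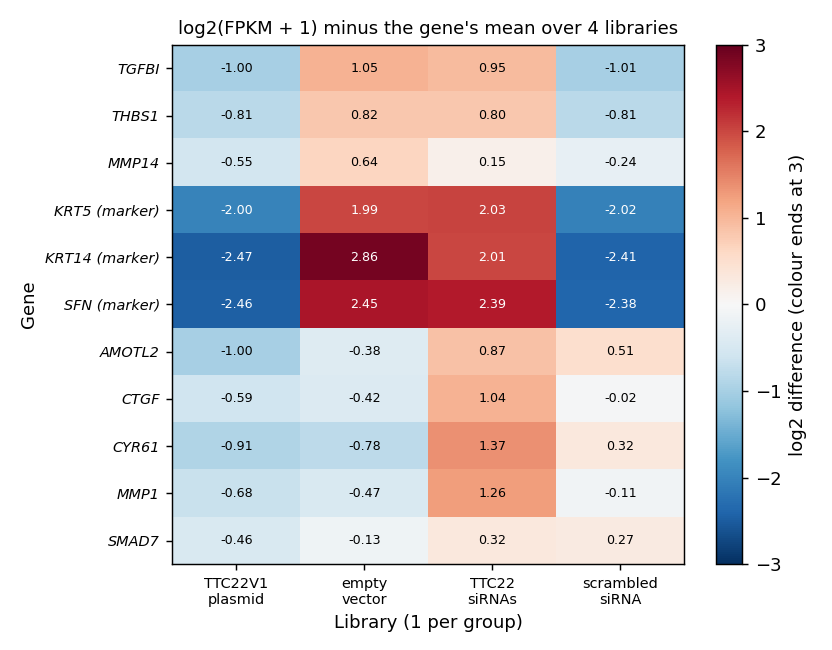
Difference of log2(FPKM + 1) in each library from the mean of the gene over the 4 libraries, for the 8 members that averaged 1 FPKM or more and for 3 basal or squamous markers (KRT5, KRT14, SFN). TGFBI, THBS1 and MMP14 share the sign of the markers in each library, at smaller size, while CTGF, CYR61 and MMP1 are positive mainly in the siTTC22 library.

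SMAD7 (ENSG00000101665, chromosome 18, 48919853 to 48950965 on the minus strand, up to 4 exons) encodes the inhibitory SMAD that blocks the type I receptor and is itself induced by SMAD proteins. SMAD7 was at 1.75 FPKM in the siTTC22 library and 1.67 FPKM in the scramble library, a log2 fold of 0.04. It was at 0.604 FPKM in the TTC22V1 library and 1.02 FPKM in the vector library, with a mean of 0.813 FPKM that kept it out of the genes called measured. SMAD7 was thus nearly level within the siRNA experiment, at a low level in both libraries, and whether SMAD signalling differed was not tested.

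The collagenase gene MMP1 (ENSG00000196611, chromosome 11, 102789401 to 102798160 on the minus strand, up to 10 exons) encodes a secreted enzyme that cuts fibrillar collagen. MMP1 was at 5.14 FPKM in the siTTC22 library and 1.38 FPKM in the scramble library, a ratio of 3.73 and a log2 fold of 1.37. It was at 0.605 FPKM in the TTC22V1 library, against 0.859 FPKM in the vector library, a pair under the level needed for a call. Of all pairs of members, MMP1 and CTGF had the closest profiles, with a Euclidean distance of 0.259 between their centred log2 levels over the 4 libraries, and TGFBI and THBS1 came next, at 0.386.

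MMP14 (ENSG00000157227, chromosome 14, 22836560 to 22849041 on the plus strand, up to 11 exons) encodes a membrane-anchored protease that cuts collagen and activates MMP2. MMP14 was at 0.818 FPKM in the TTC22V1 library, against 3.14 FPKM in the vector library. Its log2 fold was −1.19, and −0.98 after centring, which is no longer a call. It was at 1.96 FPKM in the siTTC22 library and 1.26 FPKM in the scramble library, a log2 fold of 0.39. The vector library was highest and the TTC22V1 library lowest, with the siRNA libraries between them.

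**Figure D4:**
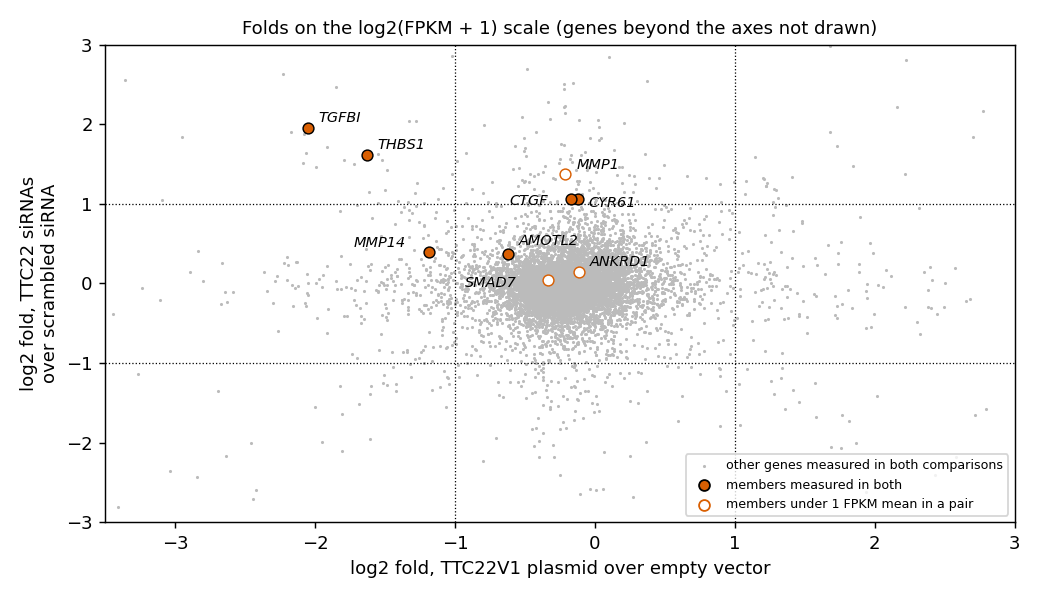
Log2 folds of each gene, TTC22V1 over vector on the horizontal axis and siTTC22 over scramble on the vertical axis, on the log2(FPKM + 1) scale, with dotted lines at 1 and −1. TGFBI and THBS1 lie at the upper left, CTGF, CYR61 and MMP1 above the upper line near 0 on the horizontal axis, and MMP14 left of the line at −1. Open points are members with a mean under 1 FPKM in a pair.

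The median log2 fold of the measured members was −0.90 for TTC22V1 over vector, beside −0.21 over all measured genes, and 1.06 for siTTC22 over scramble, beside −0.02 over all. TTC22 took 12.8% of the summed FPKM of the TTC22V1 library, and its part in the lower median was not tested.

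The controls themselves differed. Scramble over vector gave log2 differences of 1.10 for CYR61, −1.63 for THBS1 and −2.06 for TGFBI, so 1 member was higher and 2 were lower in scramble, where 4.99% of all genes were higher and 14.1% lower. Both siRNA libraries stood above both plasmid libraries for 5 members (CYR61, CTGF, AMOTL2, SMAD7 and MMP1), as did 24.5% of the 10133 genes. The mean of the siRNA libraries over that of the plasmid libraries was 3.72 for CYR61, 2.83 for CTGF, 2.78 for AMOTL2, 2.11 for SMAD7 and 4.46 for MMP1. Type of transfection, plasmid or siRNA, and experiment cannot be told apart, and whether the 2 tables were normalized together is not given in the sources used here. With only the libraries that were low in the basal markers, TTC22V1 over scramble, CYR61 had a log2 difference of −1.23 and AMOTL2 of −1.51. These 2 of 6 measured members were lower, as were 6.97% of all genes, while THBS1 was at 0.00 and TGFBI, at 0.0473 and 0.0419 FPKM, could not be called. With only the libraries that were high in them, siTTC22 over vector, 4 of 8 measured members (CYR61, CTGF, AMOTL2 and MMP1) were higher, as were 5.86% of all genes.

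Few other targets of YAP and TAZ were called. Of 22 target genes on the list, which includes CTGF, CYR61, ANKRD1 and AMOTL2, 16 were measured in the siRNA comparison, and CTGF and CYR61 were the only 2 called, with a list median of 0.03, beside −0.02 over all genes. In the plasmid comparison 15 of the 22 were measured and 1 was lower, NT5E, which makes adenosine at the cell surface, at 14.7 FPKM in the TTC22V1 library and 33.6 FPKM in the vector library (log2 fold −1.14, −0.93 after centring). The list median there was −0.23, beside −0.21 over all. Of all measured genes 4.1% were lower in the plasmid comparison, and 2.57% were higher in the siRNA comparison.

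Among the Hippo pathway genes, YAP1 itself was lower with siTTC22, at 5.47 FPKM, against 15.5 FPKM in the scramble library (log2 fold −1.35), in the library where CTGF and CYR61 were highest. VGLL4, a competitor of YAP for TEAD, was lower with siTTC22 too, at 2.54 FPKM, against 6.58 FPKM in the scramble library. AMOTL1, the paralogue of AMOTL2, was higher, at 4.90 FPKM in the siTTC22 library and 1.88 FPKM in the scramble library (log2 fold 1.04), a call lost at 0.98 when libraries were rescaled to a common sum. These were the 3 called of 21 measured, 1 higher and 2 lower, where 2.57% of all genes were higher and 2.19% lower. WWTR1, which encodes TAZ, was at 5.43 FPKM in the siTTC22 library and 3.97 FPKM in the scramble library.

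With TTC22V1, 4 of the 22 measured Hippo genes were lower and 0 higher, where 4.1% of all measured genes were lower and 2.08% higher. They were AMOTL1 (1.72 FPKM, against 6.21 FPKM in vector), the LIM protein gene AJUBA (3.36 against 9.05 FPKM), TEAD3 (4.52 against 11.3 FPKM) and VGLL4 (1.37 against 4.02 FPKM). Relative to the median of all genes only AMOTL1 passed as lower, as did 2.85% of all measured genes. AMOTL1 was, like TGFBI and THBS1, high in the vector and siTTC22 libraries. YAP1 was at 14.2 FPKM in the TTC22V1 library, against 10.8 FPKM in the vector library, and WWTR1 at 3.82 and 5.38 FPKM in these libraries. TEAD1, TEAD2 and TEAD4, the other TEAD factors, had log2 folds of 0.21, −0.27 and −0.43 with TTC22V1 and of 0.12, −0.46 and −0.04 with siTTC22.

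Of the TGF-beta ligands, receptors, SMADs and inhibitors, 16 of 25 were measured in the plasmid comparison and 2 were lower, the ligand gene TGFB1 (6.37 FPKM in TTC22V1, against 17.6 FPKM in vector, log2 fold −1.34) and the receptor gene TGFBR2 (2.52 against 7.58 FPKM, −1.28). Both stayed past the rule relative to the median of all genes. Of all measured genes 4.1% were lower, and 2.85% after centring. In the siRNA comparison 18 of these 25 were measured, and over all genes 2.57% were higher and 2.19% lower. STRAP, a receptor-associated protein gene that dampens TGF-beta signalling, was higher (71.8 FPKM in siTTC22, against 30.6 FPKM in scramble), and the corepressor gene TGIF2 was lower (0.763 against 3.12 FPKM). SMAD2, SMAD3 and SMAD4 had log2 folds of 0.05, −0.13 and 0.00 there, and TGFBR1 of −0.20. TGFBR2 was just short of a call at −0.95 and passed the rule as lower at −1.07 with a pseudocount of 0.1 and at −1.01 after rescaling to a common sum.

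Of 21 TGF-beta target genes, 13 were measured in the siRNA comparison and 4 were higher, the members CTGF, TGFBI and THBS1 and also JUNB, a gene with 1 exon that was at 151 FPKM in siTTC22 and listed at 0 in scramble. JUNB was at 59.8 FPKM in the TTC22V1 library and 115 FPKM in the vector library, and a 0 in a file without read counts can be a failed estimate, so no fold is given for it. In the plasmid comparison 10 were measured and only TGFBI and THBS1 were lower. Of all measured genes 4.1% were lower there, and 2.57% were higher in the siRNA comparison. PMEPA1, a feedback inhibitor that SMADs induce, was at 4.24 FPKM in the siTTC22 library and 2.52 FPKM in the scramble library, a log2 fold of 0.57. The list holds 4 of the members, so its counts are not a separate result.

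Of 31 matrix proteases, their inhibitors and plasminogen activators, MMP1 was the only gene called of 17 measured with siTTC22, and MMP14 the only one of 16 with TTC22V1. Over all measured genes 2.57% were higher with siTTC22 and 4.1% lower with TTC22V1. TIMP1, which inhibits MMP1, was at 101.0 FPKM in the siTTC22 library and 112 FPKM in the scramble library, and TIMP2, which inhibits MMP14, had a log2 fold of −0.20 for TTC22V1 over vector. Of the CCN and thrombospondin families, CYR61, CTGF and THBS1 were the members measured in either experiment, with THBS3 (0.987 FPKM in siTTC22, against 1.31 FPKM in scramble) added in the siRNA comparison only. None of 12 measured receptors of these proteins, integrins and CD47 among them, passed the rule in either comparison. The list medians for TTC22V1 over vector, beside −0.21 over all genes, were −0.21 for the Hippo genes, −0.33 for the TGF-beta components, −0.28 for the TGF-beta targets, −0.29 for the proteases, −0.17 for the CCN and thrombospondin families and −0.17 for the receptors. For siTTC22 over scramble, beside −0.02 over all genes, they were 0.11, −0.07, 0.31, −0.11, 1.06 and 0.08 in the same order of lists, and the CCN and thrombospondin medians rest on 3 genes in the plasmid comparison and 4 in the siRNA comparison, of which 3 are members described above.

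The genes nearest to each member were sought among the same 10133 genes, by the Euclidean distance between centred log2 levels over 4 libraries, and many genes can lie close over so few points. Nearest to THBS1 were PTHLH (0.0543) and DCAF16 (0.120), and nearest to TGFBI were HOXA10 (0.212) and the keratin gene KRT7 (0.228). PTHLH, for example, was at 0.0915 FPKM in the TTC22V1 library, against 2.21 FPKM in the vector library, and at 2.29 FPKM in the siTTC22 library and 0.0660 FPKM in the scramble library. Nearest to CYR61 were WNT7A (0.127) and the immediate early gene NR4A1 (0.139), which was at 22.7 FPKM in siTTC22, against 12.0 FPKM in scramble. CTGF was nearest to ZNF281 (0.123) and to a locus with a clone-based name, MMP1 to LSM12 (0.139) and TMEM186 (0.215), AMOTL2 to GOLGA8B (0.0434) and CCNL2 (0.132), MMP14 to C12orf45 (0.118) and MAP1S (0.145), and SMAD7 to HOTAIRM1 (0.0265) and FAM156A (0.0373).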

How the data were processed

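Polyadenylated RNA of 4 HCT116 cultures was sequenced with paired ends after transfection, per the labels. The submitters' processing notes name STAR and hg38, without a version of STAR. Not given in the sources used here are the program, annotation and filters behind the values. The deposited values were taken to be FPKM as made by the authors, inferred from their sums and decimals. Of the 9 members, CTGF, ANKRD1 and MMP1 have values of at most 6 decimals and 6 have more, so those values are not plain sums of numbers with 6 decimals, and levels of different genes may not be built alike. With 1 library per group no test was run. Python 3.11.15 and pandas 2.3.3 were used, with a pseudocount of 1 FPKM, which understates the change of low genes. Exon numbers and gene coordinates are from GENCODE 44, which held 91.6% of the identifiers. The members, 7 gene lists, 5 marker lists and the naming rule were chosen with earlier results of these data known. That rule took, beside the members, TTC22 and the core factors, up to 4 called genes of each list and comparison without a 0, and the 2 nearest profiles of each member. Other genes were named after their values were seen. The folds were also computed with a pseudocount of 0.1, median centring, other filters, sizes of 1.5-fold and 4-fold, rescaling and the control of the other experiment, and the scripts were tested on simulated data.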

Additional observations from a re-analysis of the deposited data

How the results depend on the processing

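Of the members past the size rule, 3 with TTC22V1 and 5 with siTTC22, the counts became 0 and 1 with a mean of at least 5 FPKM in the pair, and 1 and 0 with a size of 4-fold. The 4-fold counts hold on the log2(FPKM + 1) scale, which understates low genes. In plain FPKM, siTTC22 was 72.4 times scramble for TGFBI and 5.06 times for THBS1. For THBS1 the vector library was 5.11 times the TTC22V1 library. Rescaling to a common sum without TTC22 and mitochondrially encoded genes left 3 with siTTC22. The shares over all genes are not given for these settings, so nothing is read from these counts. The members' median with siTTC22, 1.06, was 0.71 at 5 FPKM or more (2 members left), 0.99 after rescaling and 0.85 against the vector control, and that with TTC22V1, −0.90, was −1.26 with a pseudocount of 0.1, −0.70 after centring, −0.74 after rescaling, −0.65 against the scramble control, −0.37 at 5 FPKM or more (2 members left) and −0.33 with no filter (all 9). With TTC22V1 the folds of CYR61 and CTGF were 0.08 and 0.03 after centring. Against the control of the other experiment, chosen after seeing the data, the log2 difference of THBS1 was 0.000276 for TTC22V1 over scramble and −0.0136 for siTTC22 over vector, that of TGFBI −0.11 and that of AMOTL1 −0.29 for siTTC22 over vector, each without the direction reported. The stricter filter and size leave fewer members by construction, and the cause of the other changes was not tested. No paired analysis was possible because each group has 1 library, and no library could be left out for the same reason. Depth is unknown, so no counting interval can be given.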

Other observations

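Genes of the lists that were not members also split by experiment, each given here after its values were seen. Both siRNA libraries stood above both plasmid libraries for 24.5% of the 10133 genes that averaged 1 FPKM or more over the 4 libraries. The tissue factor gene F3, a YAP target, was at 81.6 FPKM in siTTC22 and 86.8 FPKM in scramble, and at 14.6 FPKM in TTC22V1 and 15.8 FPKM in vector. The collagen cross-linking enzyme gene LOXL2 was at 56.8 and 53.9 FPKM in siTTC22 and scramble, and at 14.3 and 13.5 FPKM in TTC22V1 and vector. LATS2, a Hippo kinase gene that YAP induces, was at 13.8 and 11.7 FPKM in siTTC22 and scramble, and at 3.82 and 4.48 FPKM in TTC22V1 and vector. Other listed genes split the opposite way, a split for which the share over all genes is not given. ADAM15, a membrane protease gene, was at 9.93 and 10.7 FPKM in siTTC22 and scramble, and at 23.4 and 31.9 FPKM in TTC22V1 and vector. TEAD4 was at 5.34 and 5.53 FPKM in siTTC22 and scramble, and at 9.57 and 13.2 FPKM in TTC22V1 and vector. CDKN1A, a cell cycle inhibitor gene, was at 66.4 and 67.3 FPKM in siTTC22 and scramble, and at 100.4 and 128 FPKM in TTC22V1 and vector. None of these 6 genes was called in either comparison of treatment with control.

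The split of TGFBI and THBS1 was shared by MMP2, the gelatinase that MMP14 activates, at a lower level. MMP2 stood at 0.173 FPKM in TTC22V1 and 0.905 FPKM in vector, and at 0.884 FPKM in siTTC22 and 0.145 FPKM in scramble, under the level needed for a call. ADAM10, a sheddase of many surface proteins, stood at 3.94 FPKM in TTC22V1 and 6.77 FPKM in vector, and at 6.68 FPKM in siTTC22 and 3.93 FPKM in scramble, with log2 folds of −0.65 and 0.64.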
